A study of Mus musculus with 4 samples.

Results

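Hdc, Trh, Pmch, Ppp1r17, Nr5a1 and Foxb1 mark neurons of 6 hypothalamic regions that lie outside the arcuate nucleus, namely the tuberomammillary, paraventricular, lateral, dorsomedial, ventromedial and mammillary regions. They were picked as region markers with earlier results of these data known, were matched by gene symbol to the platform annotation, and are 6 of the 16593 genes named on the arrays. They were read by 8 of the 25697 probes: 1 probe each for Hdc, Trh, Pmch and Ppp1r17 and 2 each for Nr5a1 and Foxb1. All 8 probes were among the 12266 probes detected on at least 2 of the 4 arrays (detection p-value under 0.05) and were tested. Pmch passed this filter through the virus-injected arrays alone.

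The arrays were Illumina MouseRef-8 v2 beadchips, which average many beads for each probe, and they held ribosome-bound RNA pulled down through a hemagglutinin tag from punches of mouse mediobasal hypothalamus. For the lineage group, 2 arrays held RNA of Pomc-Cre mice bred with RiboTag mice, which make a tagged copy of the ribosomal protein RPL22 once Cre has acted, and the labels give the cells as Pomc-derived lineage. For the virus-injected group, 2 arrays held RNA of Pomc-Cre mice given AAV-DIO-RiboTag, a Cre-dependent adeno-associated virus with the same tag, and the labels give the cells as adult POMC neurons. Both groups carried Pomc-Cre, so the tag depended on the Pomc promoter in each, at any age in the cross and after injection with the virus. Age, sex and the number of animals behind an array are not given in the sources used here, so p-values cover only the spread of these samples, part or all of which may be technical. All arrays sat on 1 beadchip, at positions F and H for the lineage group and B and D for the virus-injected group, so position and group cannot be told apart.

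The hypothalamus is built of small nuclei whose neurons are told apart by the transmitters, peptides and transcription factors they make. POMC neurons sit in the arcuate nucleus, where they restrain feeding, and the same region holds neurons that promote it. The 6 markers belong to cells that surround it: histamine neurons that promote wakefulness, thyrotropin-releasing neurons that govern the thyroid axis, melanin-concentrating hormone neurons tied to feeding and sleep, and the neurons of the dorsomedial, ventromedial and mammillary regions. Pomc itself, the defining gene of the tagged cells, had intensities of 7108 and 7874 on lineage arrays and 5079 and 5219 on virus-injected arrays. It was detected on every array and was 1.57-fold higher on lineage arrays (limma adjusted p = 0.369).

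Hdc, Trh, Pmch and Ppp1r17 had lower signal on both lineage arrays than on either virus-injected array, whereas Nr5a1 and Foxb1 had smaller differences, with intervals that included 0. The difference was 3.79-fold for Hdc, 2.89-fold for Trh and 1.85-fold for Ppp1r17, and for Pmch, which was not detected on either lineage array, only a bound can be given. That bound was at least 2.50-fold on the background-corrected scale and at least 1.31-fold without virus-injected replicate 1. Trh and Ppp1r17 were each detected on 1 of the 2 lineage arrays, so their folds depend on the background correction. Their log2 differences were -1.53 and -0.88 with it and -0.70 and -0.32 without it. In precipitated RNA of mixed tissue, fewer cells of a type and less RNA per cell cannot be told apart. None of the 8 probes passed the threshold of the limma fit after Benjamini-Hochberg adjustment over all tested probes (adjusted p 0.295 to 0.964), and of all 12266 probes 0% did. At an unadjusted p under 0.05, 4 of the 6 genes were lower on lineage arrays and 0 were higher, against 5.55% and 4.84% of all tested probes. Both lineage arrays lay below both virus-injected arrays for the brightest probe of 4 of the 6 genes, against 21.4% of all tested probes. The median log2 difference over the 6 genes was -1.21, or -1.10 with Pmch at its bound, and over all tested probes it was 0.0030. These counts include Pmch, which passed the filter only through the arrays where it was higher, and they describe a list assembled with results of these data known.

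**Figure D1:**
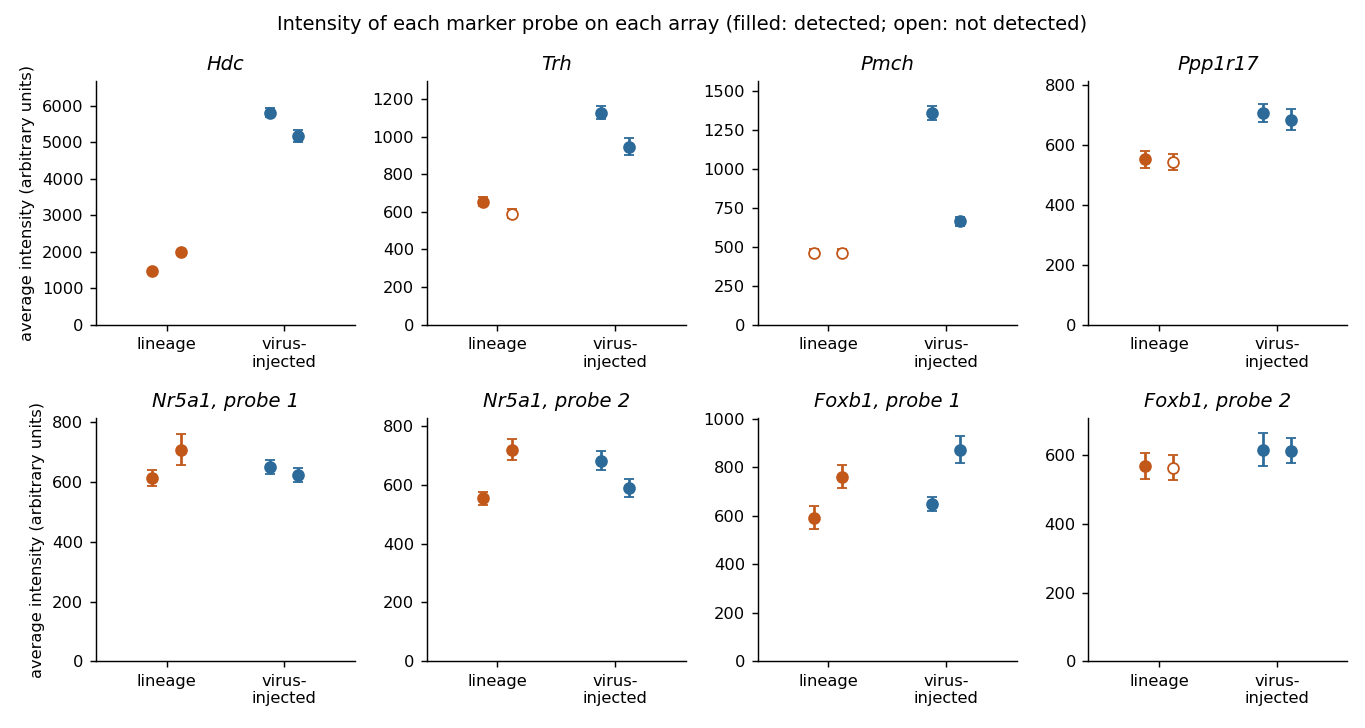
Average intensity (arbitrary units, axes from 0) of the 8 probes on each of the 4 arrays, with the lineage group left of the virus-injected group. Points are single arrays with the standard error over beads, and open points were not detected (detection p of 0.05 or more). The points of Hdc, Trh, Pmch and Ppp1r17 separate by group, whereas those of Nr5a1 and of the first Foxb1 probe are interleaved or close.

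RefSeq start-site windows ran from 250 bases before to 50 after the start (build GRCm38.p6). These windows were at hand for 3 of the 6 genes, Hdc, Trh and Pmch, and all 3 are shown. They are written 5′ to 3′ on the strand of the gene, with capitals at every match on either strand to the TATA-box letters TATAA, to the nuclear receptor half-site AGGTCA, to the GC-box letters GGGCGG or to the full cyclic AMP element TGACGTCA. The window of Hdc is chr2:126618629-126618928 on the minus strand, that of Trh chr6:92244601-92244900 on the minus strand and that of Pmch chr10:88090822-88091121 on the plus strand.
Hdc: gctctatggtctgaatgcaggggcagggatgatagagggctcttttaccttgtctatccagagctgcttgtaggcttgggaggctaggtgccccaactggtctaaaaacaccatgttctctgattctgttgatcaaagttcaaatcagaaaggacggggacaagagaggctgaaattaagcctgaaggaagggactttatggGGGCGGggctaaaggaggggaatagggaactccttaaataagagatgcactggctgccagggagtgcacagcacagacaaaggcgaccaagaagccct
Trh: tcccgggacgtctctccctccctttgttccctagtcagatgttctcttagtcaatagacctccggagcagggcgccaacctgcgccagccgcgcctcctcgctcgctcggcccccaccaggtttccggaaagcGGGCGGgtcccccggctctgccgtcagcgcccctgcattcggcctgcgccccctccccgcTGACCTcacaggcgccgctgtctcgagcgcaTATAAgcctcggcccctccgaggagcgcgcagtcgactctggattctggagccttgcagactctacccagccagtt
Pmch: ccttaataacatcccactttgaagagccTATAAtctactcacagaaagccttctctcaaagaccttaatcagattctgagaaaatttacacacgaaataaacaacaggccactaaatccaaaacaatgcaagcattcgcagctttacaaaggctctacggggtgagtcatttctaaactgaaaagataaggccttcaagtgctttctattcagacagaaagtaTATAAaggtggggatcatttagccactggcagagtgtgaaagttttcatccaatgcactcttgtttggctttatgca
The TATA-box letters began 26 bases before the start of Trh and 27 bases before that of Pmch, with a further match 222 bases before it. No match to them lay in the Hdc window. Of 32851 windows of the same length, 24.9% held them. The half-site was read on the opposite strand of Trh at 57 bases before the start, and 16.3% of all windows held it. The GC-box letters occurred once in Hdc and once in Trh and in 35.7% of all windows, and the full cyclic AMP element in none of the 3 and in 1.79% of all windows. No motif searched was shared by the 3 windows, and the motifs overlapped nowhere. The windows differed in base composition, with 50.7% G and C in Hdc, 67.0% in Trh and 39.0% in Pmch, against a median of 52.7%. A match here is a match of letters only, and the motifs were chosen after the sequences were seen.

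Hdc encodes histidine decarboxylase, the enzyme that makes histamine, and in the brain its neurons lie in the tuberomammillary nucleus. The deposited intensity was 1467 and 1992 on lineage arrays, against 5808 and 5165 on virus-injected arrays. The standard error over beads was 40.8 and 60.5 on lineage arrays and 128 and 164 on virus-injected arrays, from 38 to 49 beads an array. Both lineage arrays were far below both virus-injected arrays.

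After background correction, quantile normalization and log2 (neqc), Hdc stood at 10.35 ± 0.36 on lineage arrays and 12.27 ± 0.05 on virus-injected arrays (SD, n = 2 each). The log2 difference was -1.92 (SE 0.22, 95% interval -2.51 to -1.34), with an unadjusted p of 0.000493 and 0.295 after adjustment in the limma fit. Of the 12266 tested probes, 11 had a more negative difference. On the linear scale of the authors' processed intensities Hdc averaged 1337 ± 354 on lineage arrays and 4915 ± 97.6 on virus-injected arrays (SD, n = 2 each), 3.68-fold apart. Hdc was detected with a detection p of 0 on all 4 arrays, so it was measured above background in both groups. Among the alternatives run, it was the only one of the 6 genes to hold an adjusted p under 0.05 in more than 1 alternative: 3.33e-06 where the spread was allowed to follow brightness (eBayes with a trend) and 0.00295 without background correction. Over all its alternatives the adjusted p ran up to 0.743.

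The other tested genes of the tuberomammillary list had log2 differences between -0.18 and 0.20. Of 7 listed genes 5 were tested, and at an unadjusted p under 0.05 none was lower and none higher in the limma fit. Their median log2 difference was -0.02. Maob, monoamine oxidase B, which breaks down a histamine metabolite, had intensities of 941 and 1239 on lineage arrays and 1052 and 972 on virus-injected arrays, a log2 difference of 0.20 (SE 0.22). Another Maob probe gave -0.07. Hrh3, the histamine H3 receptor, had intensities of 1220 and 1359 on lineage arrays and 1278 and 1418 on virus-injected arrays, a log2 difference of -0.06 (SE 0.19). The groups overlapped for both genes. Wif1, a secreted Wnt inhibitor, differed by -0.18 (SE 0.20). Slc18a2, the vesicular monoamine transporter that loads histamine and other amines, and Hcrtr2, an orexin receptor, are named here after their values were seen, at -0.02 (SE 0.18) and 0.0019 (SE 0.18). Ada and Prph were not detected on enough arrays to be tested. In the histamine pathway list 4 of 6 genes were tested and none was lower or higher at an unadjusted p under 0.05. Beside Maob and Hrh3, Hnmt, the enzyme that methylates histamine, was detected on 1 array of each group and differed by 0.27 (SE 0.41). Hrh1 and Hrh2 were not tested. Whether the difference in Hdc itself exceeds those of these genes was not tested.

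Trh encodes the precursor of thyrotropin-releasing hormone, made in the paraventricular nucleus and in several other hypothalamic regions. Its intensity was 654 and 591 on lineage arrays, against 1126 and 947 on virus-injected arrays. The standard error over beads was 22.9 and 23.2 on lineage arrays and 34.3 and 46.3 on virus-injected arrays. The groups did not overlap, and 1 of the 2 lineage arrays was at background (detection p 0.0815).

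On the neqc log2 scale Trh averaged 7.70 ± 0.47 on lineage arrays and 9.23 ± 0.21 on virus-injected arrays (SD, n = 2 each). The log2 difference was -1.53 (SE 0.28, 95% interval -2.26 to -0.81), with an unadjusted p of 0.00330 and 0.303 after adjustment in the limma fit, and 32 tested probes had a more negative one. The size depended on the background correction: the log2 difference was -0.70 without it. In the authors' processed intensities Trh averaged 200 ± 63.9 on lineage arrays and 588 ± 96.9 on virus-injected arrays (SD, n = 2 each).

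Among 8 other genes listed for paraventricular neurons 4 were tested, with a median log2 difference of -0.82. At an unadjusted p under 0.05 in the limma fit, 2 were lower and none was higher on lineage arrays. Of all tested probes 5.55% were lower and 4.84% higher. Avp, which encodes vasopressin, had intensities of 748 and 706 on lineage arrays, against 5142 and 8059 on virus-injected arrays. Oxt, which encodes oxytocin, had intensities of 805 and 660 on lineage arrays, against 1143 and 1263 on virus-injected arrays. Both peptide genes were separated by group, with log2 differences of -4.23 (SE 0.33) and -1.33 (SE 0.34). Sst, the gene of somatostatin, which many hypothalamic neurons make, went the other way at 0.48 (SE 0.19). Pou3f2, a POU-domain factor needed for neuroendocrine neurons, named here after its value was seen, lay at -0.31 (SE 0.19). Sim1 and Otp, the transcription factors that specify the paraventricular nucleus, were not detected on enough arrays to be tested, and neither were Crh and Mc4r.

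Of 8 genes for the processing and reception of the TRH precursor, 3 were tested. At an unadjusted p under 0.05 in the limma fit, 2 were higher and none was lower on lineage arrays. Of all tested probes 4.84% were higher and 5.55% lower. Pcsk1, the prohormone convertase that cleaves peptide precursors, had intensities of 1189 and 1215 on lineage arrays and 794 and 863 on virus-injected arrays, a log2 difference of 0.98 (SE 0.19). Qpct, the glutaminyl cyclase that forms the pyroglutamate end of TRH, differed by 0.58 (SE 0.20), and Pam, which amidates peptides, by -0.23 (SE 0.20). These enzymes also act on many other peptides, and the lineage arrays were higher for Pcsk1 and Qpct while lower for Trh. The receptor genes Trhr and Trhr2 and the degrading enzyme gene Trhde were not tested, and the processing genes Pcsk2 and Cpe were matched to no probe symbol.

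Pmch encodes the precursor of melanin-concentrating hormone, the peptide of a population of lateral hypothalamic neurons. Its intensity was 463 on both lineage arrays, against 1360 and 663 on virus-injected arrays. The standard error over beads was 24.7 and 20.6 on lineage arrays and 43.0 and 26.7 on virus-injected arrays. Neither lineage array was above background (detection p 0.180 and 0.272), and the virus-injected arrays differed from each other by more than the dimmer of them differed from the lineage group.

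The lineage mean of Pmch on the neqc log2 scale was 6.54 ± 0.08 and the virus-injected mean 8.86 ± 1.31 (SD, n = 2 each). Set against the lowest detected signal of each lineage array, Pmch was at least 2.50-fold lower on lineage arrays on this scale. Recomputed after the data were seen, the bound was at least 1.54-fold without background correction, at least 1.31-fold without virus-injected replicate 1 and at least 4.76-fold without virus-injected replicate 2. The measured log2 difference was -2.31 (limma adjusted p = 0.396), a value that rests on lineage signals at background. It was -1.36 without virus-injected replicate 1 and -3.24 without virus-injected replicate 2, -0.99 without background correction and -3.73 on the authors' processed intensities, where the lineage values were 47.1 and 24.1 and the virus-injected values 873 and 228.

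Of 6 other genes listed for the lateral hypothalamus 3 were tested. At an unadjusted p under 0.05 in the limma fit, 2 were lower and 1 was higher on lineage arrays. Of all tested probes 5.55% were lower and 4.84% higher. Nts, which encodes neurotensin, had intensities of 634 and 677 on lineage arrays, against 1564 and 1218 on virus-injected arrays, a log2 difference of -1.96 (SE 0.19), and its other probe gave -0.72. Gal, the gene of galanin, differed by -0.54 (SE 0.19). Nptx2, a secreted synaptic pentraxin made by orexin neurons among others, had intensities of 2695 and 3058 on lineage arrays, against 1547 and 1173 on virus-injected arrays, a log2 difference of 1.46 (SE 0.21). The list held differences of both signs, and Hcrt, the orexin gene that defines the other main lateral population, was not detected on enough arrays to be tested. The same held for the lateral factor gene Lhx9 and for Mchr1, the receptor for melanin-concentrating hormone.

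Ppp1r17 encodes G-substrate, a protein phosphatase inhibitor that cyclic GMP-dependent kinase activates, known from cerebellar Purkinje cells and made in the dorsomedial hypothalamus. Its intensity was 553 and 543 on lineage arrays, against 708 and 686 on virus-injected arrays. The standard error over beads was 27.9 and 27.0 on lineage arrays and 29.3 and 35.6 on virus-injected arrays. The arrays of a group were nearly equal and the groups did not overlap, with 1 of the 2 lineage arrays at background (detection p 0.128) and the other just detected (0.0489).

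Ppp1r17 averaged 7.19 ± 0.22 on the neqc log2 scale on lineage arrays and 8.07 ± 0.01 on virus-injected arrays (SD, n = 2 each). The log2 difference was -0.88 (SE 0.18, 95% interval -1.35 to -0.42), with an unadjusted p of 0.00504 and 0.307 after adjustment in the limma fit. It was the smallest of the 4, with 224 tested probes more negative, and it was -0.32 without background correction.

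Of 6 other dorsomedial genes 2 were tested. At an unadjusted p under 0.05 in the limma fit 1 was lower on lineage arrays, against 5.55% of all tested probes. That gene, Hmx3, passed the filter only through the virus-injected arrays, where it was higher. Hmx3, a homeobox gene, had intensities of 527 and 546 on lineage arrays, both at background, against 609 and 594 on virus-injected arrays, a log2 difference of -0.39 (SE 0.15), too small for a bound. Grp, the gene of gastrin-releasing peptide, was detected on 1 array of each group and lay at -0.34 (SE 0.52). Npvf, Gpr50, Hmx2 and Cck were not tested. All 4 listed partners of G-substrate were tested, and 1 was lower at an unadjusted p under 0.05: Prkg2, a cyclic GMP-dependent kinase, with intensities of 747 and 785 on lineage arrays, against 947 and 1020 on virus-injected arrays (log2 difference -0.66, SE 0.18). Prkg1, the other such kinase, differed by -0.16 (SE 0.25), and Ppp1ca, a phosphatase catalytic subunit, by -0.14 (SE 0.17), with -0.02 and 0.02 on its other probes.

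Nr5a1 encodes steroidogenic factor 1, a nuclear receptor required to form the ventromedial nucleus and, outside the brain, active in the gonads, the adrenal cortex and pituitary gonadotropes. Its brighter probe had intensities of 614 and 709 on lineage arrays and 650 and 624 on virus-injected arrays. The second probe had intensities of 553 and 719 on lineage arrays and 681 and 589 on virus-injected arrays. Before normalization the groups overlapped on both probes, and all values lay just above background, with detection p-values of 0.0150 to 0.0489.

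The log2 difference of Nr5a1 was 0.22 (SE 0.18, 95% interval -0.25 to 0.69, limma adjusted p = 0.707) on the brighter probe, with 7.94 ± 0.22 on lineage arrays and 7.72 ± 0.07 on virus-injected arrays (SD, n = 2 each). The second probe gave 0.07 (SE 0.35, 95% interval -0.84 to 0.98, limma adjusted p = 0.964), and it went to -0.20 without virus-injected replicate 2 and to -0.34 without lineage replicate 2. These intervals leave room for differences of either sign. On the log2 scale of the brighter probe the lineage arrays lay above both virus-injected arrays after normalization, as did those of 21.9% of all tested probes.

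Of 7 other ventromedial genes 3 were tested, and none was lower or higher at an unadjusted p under 0.05. Adcyap1, the gene of the peptide PACAP, had intensities of 2825 and 3232 on lineage arrays and 3012 and 2539 on virus-injected arrays, a log2 difference of 0.21 (SE 0.16). Slc17a6, the vesicular glutamate transporter of these and other excitatory neurons, differed by 0.18 (SE 0.15). Nr0b1, which encodes DAX1, a partner of steroidogenic factor 1, was detected on 1 array of each group and differed by 0.42 (SE 0.48). Bdnf was not tested, and Fezf1 and Sox14 were matched to no probe symbol. Of 6 hormone genes of the anterior pituitary, another site of Nr5a1, none was detected on enough arrays to be tested.

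Foxb1 encodes a forkhead transcription factor of the mammillary bodies. Its brighter probe had intensities of 593 and 762 on lineage arrays and 648 and 874 on virus-injected arrays. The second probe had 568 and 564 on lineage arrays and 617 and 613 on virus-injected arrays. On the brighter probe the spread within a group was larger than the gap between the groups. On the second probe the groups did not overlap, by a gap close to 1 standard error over beads (36.2 to 49.0).

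The log2 difference of Foxb1 was -0.32 (SE 0.45, 95% interval -1.51 to 0.87, limma adjusted p = 0.845) on the brighter probe, with 7.99 ± 0.50 on lineage arrays and 8.31 ± 0.78 on virus-injected arrays (SD, n = 2 each). It was 0.23 without virus-injected replicate 2 and 0.03 without lineage replicate 1. The second probe, detected on 1 of 2 lineage arrays, gave -0.26 (SE 0.17, 95% interval -0.71 to 0.19, limma adjusted p = 0.637). Of 8 other mammillary genes 2 were tested and none passed an unadjusted p of 0.05. Lhx5, a LIM homeobox gene, had intensities of 846 and 839 on lineage arrays and 851 and 745 on virus-injected arrays, a log2 difference of 0.24 (SE 0.18). Barhl1, a BarH-like homeobox gene detected on 1 of the 2 lineage arrays, lay at 0.08 (SE 0.18). Lhx1, Sim2, Foxa1, Lmx1b and Irx5 were not tested.

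**Figure D2:**
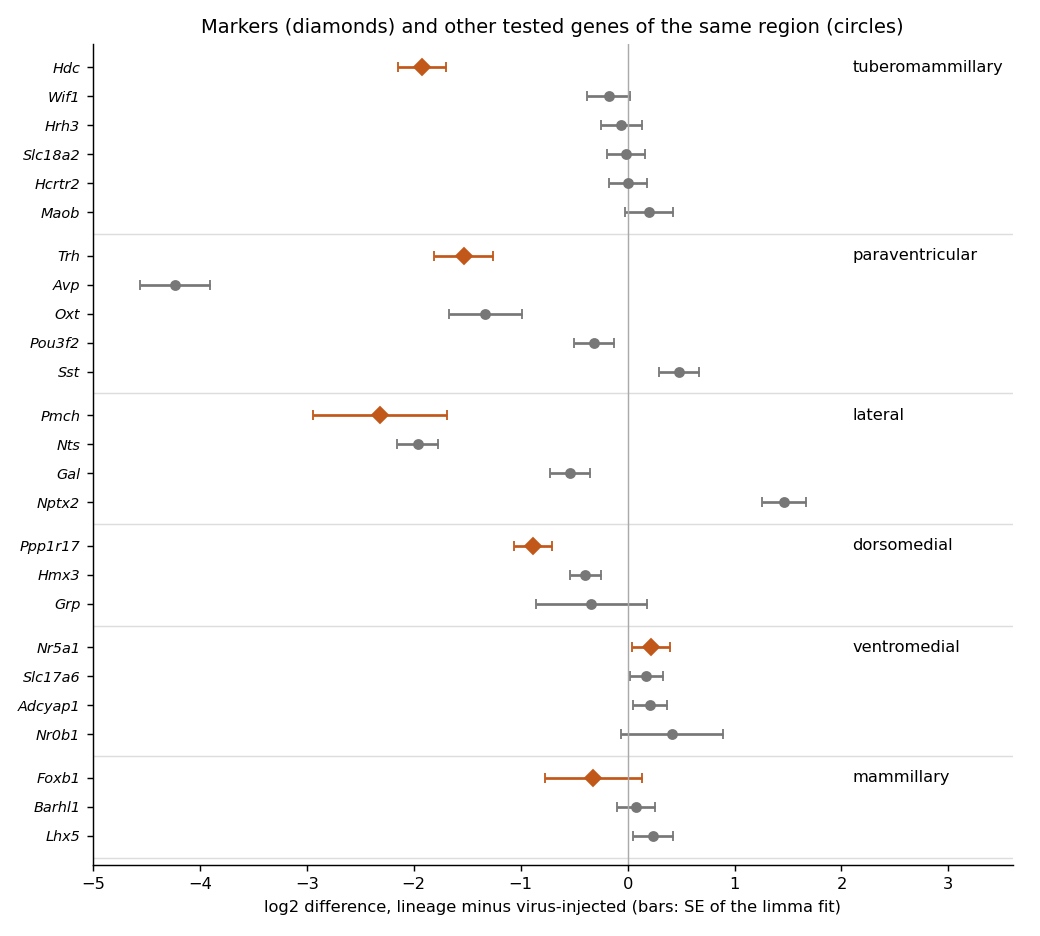
Log2 differences (lineage minus virus-injected) with the standard error of the limma fit for each marker (diamonds) and for the other tested genes listed for its region (circles). Hdc is at -1.92 while the other tuberomammillary genes lie between -0.18 and 0.20, and the ventromedial genes lie between 0.18 and 0.42.

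**Figure D3:**
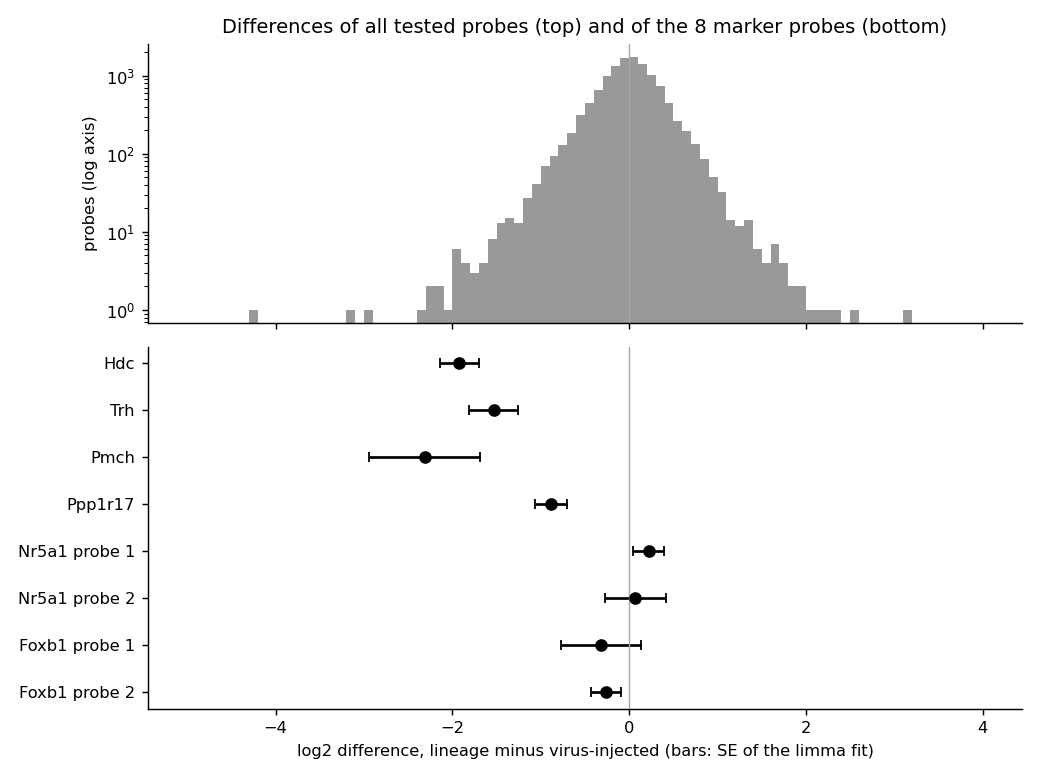
Histogram of the log2 differences (lineage minus virus-injected) of all 12266 tested probes on a logarithmic count axis (top), and the 8 marker probes with the standard error of the limma fit (bottom). Hdc lies in the far lower tail, with 11 probes more negative, and both Nr5a1 probes lie near 0. Pmch is drawn at its measured difference, although it was at background on both lineage arrays.

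Across the 4 arrays the profile of each marker was compared with those of all tested probes. The measure was the root mean square difference of log2 values centred on their mean, on the neqc scale. Counts of probes within 0.2 are over all tested probes. The nearest genes were taken only from probes with a gene symbol that is not provisional. The 3 genes nearest to Hdc were Cd36 (a fatty acid carrier, 0.13), Erdr1 (0.15) and Cpne9 (a copine, 0.16), and only 5 probes lay within 0.2 of it. Nearest to Trh were Mlc1 (an astrocyte membrane protein, 0.09), Klhl26 (0.09) and Tlcd1 (0.09). Pmch, with lineage values at background, had 1 probe within 0.2, for Scarb1 (a lipoprotein receptor, 0.14), followed by Ghrh (growth hormone-releasing hormone, 0.31) and Dlx5 (a homeobox factor, 0.49). Ppp1r17 had 281 probes within 0.2, the nearest for Krtap5-1 (0.04), Nol12 (0.04) and Notch1 (0.05). The brighter Nr5a1 probe had 4213, led by Ttyh2 (0.0082), Fam120c (0.01) and Ppp4r2 (0.02), and the brighter Foxb1 probe had 53, led by Iba57 (0.06), Cmc2 (0.08) and Rimkla (0.08). With 4 arrays such nearness describes the order and size of 4 values and nothing more, and the distance of 0.2 was chosen after the data were seen.

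Arcuate genes differed in both directions in the same fit. Of 7 tested genes 4 were higher and 2 lower on lineage arrays at an unadjusted p under 0.05. Of all tested probes 4.84% were higher and 5.55% lower. Log2 differences were 2.60 for Npy, 2.29 for Kiss1 and 0.65 (SE 0.16) for Pomc, genes of peptides made by arcuate neurons. Kiss1 was detected on 1 of the 2 virus-injected arrays. Tac2, the neurokinin B gene, was detected on the lineage arrays alone, where its level was at least 2.98-fold higher on the background-corrected scale and at least 1.59-fold higher without that correction. Ghrh, the gene of growth hormone-releasing hormone, was the reverse, detected on the virus-injected arrays alone, and was at least 3.35-fold lower on lineage arrays, or at least 1.76-fold without the correction. Th, which encodes tyrosine hydroxylase of dopamine neurons, differed by -1.57 (SE 0.51) and was detected on 1 of the 2 lineage arrays. Ghrh and Th are named after their values were seen. Tac2 and Ghrh passed the filter only through the group where they were higher, and the counts of arcuate genes include them. Of 8 pan-neuronal genes tested 1 was lower, Syt1, which encodes the vesicle calcium sensor synaptotagmin 1 (-0.48, SE 0.16), none was higher, and the median was 0.05. Rbfox3, the gene of NeuN, differed by -0.22 and Nefl, a neurofilament gene, by -0.19. The other 5, Tubb3, Snap25, Stmn2, Eno2 and Uchl1, named after their values were seen, had log2 differences of 0.01 to 0.13.

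Glial markers also had lower means on lineage arrays. Astrocyte genes had a lower lineage mean in 4 of 4 tested genes, against 49.4% of all tested probes, with a median of -0.39. Their summed intensities were 7619 to 7935 on lineage arrays and 9388 to 10984 on virus-injected arrays. At an unadjusted p under 0.05 in the limma fit 2 were lower, against 5.55% of all tested probes. They were Gja1 (connexin 43, -0.61) and Ntsr2 (a neurotensin receptor, -0.47). The next by p was Slc1a3, a glutamate transporter, at -0.32. Oligodendrocyte genes had a lower mean in 4 of 4, against the same 49.4%, with a median of -0.60. Their summed intensities were 3890 to 4088 on lineage arrays and 5434 to 5629 on virus-injected arrays. At an unadjusted p under 0.05 in the limma fit 2 were lower, against the same 5.55%. They were Mbp (myelin basic protein, -1.18, with -0.49 and -0.10 on other probes) and Opalin (a myelin protein, -0.91). Cnp, a further myelin gene, was at -0.26 on the brighter of its 2 tested probes. Mag, named after its value was seen, was at -0.28 with overlapping groups. Of the vascular list 2 were tested, Rgs5 at -1.47 (SE 0.26) and Ly6c1 at -0.17. Of microglial genes Aif1 alone was tested, at -0.56 (SE 0.28) on the brighter of its 2 tested probes. Of tanycyte and ependymal genes Vim alone was tested, at 0.70 (SE 0.36). Opalin was detected on 1 of the 2 lineage arrays and Vim on 1 of the 2 virus-injected arrays. Gfap, Aqp4 and Mog were at background or detected on too few arrays. Rpl22, the gene of the tagged protein, had intensities of 592 and 708 on lineage arrays and 803 and 959 on virus-injected arrays (log2 difference -0.95, SE 0.29). The part of these differences in those of Hdc, Trh, Pmch and Ppp1r17 was not tested.

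**Figure D4:**
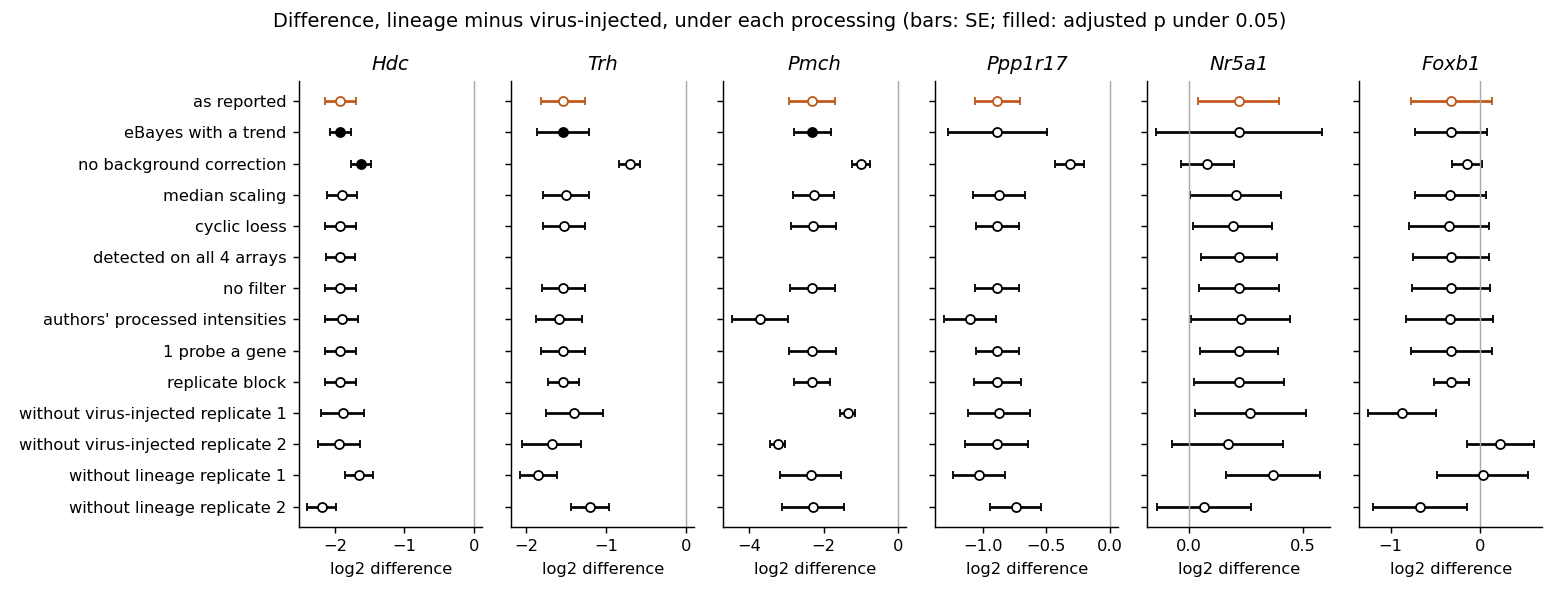
Log2 differences (lineage minus virus-injected) with standard errors for the 6 markers, brightest probe, as reported and under each alternative processing. Filled points had an adjusted p under 0.05. Hdc, Trh, Pmch and Ppp1r17 stay below 0 under every alternative that could be computed, and Foxb1 crosses 0 when virus-injected replicate 2 or lineage replicate 1 is left out.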

How the data were processed

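Ribosome-bound RNA from 4 samples was read on 1 beadchip. Extraction used the RNeasy micro kit, amplification the Ovation WTA system, and the label was biotin, per the labels' protocols. GenomeStudio was used, per the submitters' processing notes. Per the file headers, the deposited table holds for each probe an average intensity, a bead count, a standard error over beads (on the scale of the intensity signal) and a detection p-value. The authors' second table of intensities is a straight line of the first (constant of 416 to 440 subtracted, means equal at 718, column medians 122 to 134) and served as an alternative, as log2 after a floor of 16.

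The neqc function of limma 3.58.1 (R 4.3.3) was applied: background was corrected by normexp, with negative controls inferred from detection p-values and 16 added, before quantile normalization and log2. The 12266 probes with a detection p under 0.05 on at least 2 arrays were tested with lmFit and eBayes on all 4 arrays, which leaves 2 residual degrees of freedom, with Benjamini-Hochberg adjustment at 0.05 and two-sided p-values. An exact permutation of 2 against 2 arrays cannot go below 0.333 and was not used. The fit was tested on simulated data of independent normal values with the spread of these data. Such data hold no array effects and no background floor, so the fit was not tested against those. Of all probes 23978 had 1 symbol, 0 several and 1719 none. The brightest tested probe stood for a gene where a list was counted. Where no array of a group detected a probe, a fold is a bound against the lowest detected signal, on the neqc scale unless stated. The 6 genes and the 17 gene lists were chosen with earlier results of these data known. In each list the 3 genes of smallest p are named, with Pomc and Rpl22 and the 3 nearest profiles of each marker. The number of arrays limits the precision. Between 10982 and 12306 probes were detected per array, from a median of 38 to 39 beads, and arrays correlated at 0.964 in the lineage group, 0.968 in the virus-injected group and 0.949 to 0.960 across them, over probes, which are not replicates. Some genes of the lists are not reported here.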

Additional observations from a re-analysis of the deposited data

How the results depend on the processing

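The fit called 0 of 12266 probes. It called 232 with eBayes with a trend, 45 without background correction, 5 with median scaling and 1 on the authors' processed intensities, and 0 with cyclic loess, either other filter, 1 probe a gene, the replicate block or any array left out. At an unadjusted p under 0.05 there were 594 higher and 681 lower probes. With a trend, adjusted p fell under 0.05 for Hdc (-1.92), Trh (-1.53) and Pmch (-2.31), and without background correction for Hdc (-1.63). The number of the 6 genes lower at an unadjusted p under 0.05 was 4, and 1 where detection on all 4 arrays was required, since Trh, Pmch and Ppp1r17 then had no tested probe. With 1 array left out it was 3 to 4; the unadjusted limma p of Pmch was 0.0530 without lineage replicate 2. Sign changes came with 1 array left out: Foxb1 ranged from -0.88 to 0.23 and the second Nr5a1 probe from -0.34 to 0.46, with 0.03 for Foxb1 without lineage replicate 1 and -0.20 for that Nr5a1 probe without virus-injected replicate 2. The cause was not tested. Left-out arrays gave -2.19 to -1.66 for Hdc, -1.84 to -1.20 for Trh, -3.24 to -1.36 for Pmch, -1.03 to -0.74 for Ppp1r17 and 0.07 to 0.37 for the brighter Nr5a1 probe. Same-numbered replicates did not deviate together (correlation -0.02 over tested probes). Labels give each group replicates 1 and 2, and in such a balanced layout a replicate block cannot change a difference, only its error. With the block the limma fit called 0 probes, with adjusted p 0.459 for Hdc. Leaving out an array leaves a lone array in its group, which is assumed to vary like the other group. Values near background (Trh, Pmch, Ppp1r17, Nr5a1, Foxb1) shrank without background correction, which limits how well their sizes are known.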
